A study of Mus musculus with 16 samples.

Results

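The endothelial adhesion and activation genes followed here are 10 genes of leukocyte adhesion, endothelial junctions and vessel growth, out of 55359 genes counted. They were chosen by name: *Sele*, *Selp*, *Icam1* and *Vcam1* encode adhesion molecules that catch leukocytes, *Pecam1* and *Cdh5* encode proteins of the junctions between endothelial cells, *Ackr1* and *Plvap* are markers of small veins and of fenestrated capillaries, and *Vegfa* and *Kdr* are a growth factor of vessels and its main receptor. All 10 were matched to an identifier of their own and all 10 passed the filter on low counts in each comparison. The mice were wild type, C57Bl/6 in the labels and C57Bl/6N in the study's text, 8 weeks old, with hair follicles in telogen, when hair growth rests. The 4 groups, of 4 mice each, were males and females that had received UVB on the dorsal skin 3 times, and males and females without UVB, and no other allele or agent is given for any group. Skin of irradiated mice was collected 6 h after the third exposure, on day 5. RNA came from whole dorsal skin, so that endothelium is among many cell types sampled together, and fewer cells of a type and less RNA per cell cannot be told apart.

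Circulating leukocytes leave the blood in steps. E-selectin and P-selectin, the products of *Sele* and *Selp*, slow them on the vessel wall, and ICAM1 and VCAM1 then hold them through integrins while they pass between or through endothelial cells. P-selectin is also stored ready made in endothelial granules and in platelets, and E-selectin, ICAM1 and VCAM1 are best known as genes that cytokines such as TNF and IL-1 switch on in endothelium. ICAM1 and VCAM1 are made by other cells too, among them keratinocytes, fibroblasts and macrophages, and VEGF-A in skin is made largely by keratinocytes, while its receptor KDR sits on endothelium. In skin these genes are known from the redness and swelling that follow sunburn.

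Reads on genes numbered 16495776 to 33404831 per mouse, and the lowest count of any member in any mouse was 58 reads, for *Sele* in a no-UVB male. Levels are given in CPM, a gene's reads set against the TMM-scaled total of its library. The 22 genes of an endothelial identity list were all above the filter, and their summed level was 759.7 to 904 CPM in no-UVB males, 746 to 909 in UVB males, 711 to 868 in no-UVB females and 724 to 1060 in UVB females. Some libraries stood apart in ways that touch the members. On the fourth principal component, which held 3.6% of the variance of the 1000 most variable genes, no-UVB males 1 and 2 lay at 9.6 and 9.1, and no-UVB males 3 and 4 at -12.4 and -16.6. UVB female 2 had the highest summed endothelial identity level of the 16 mice, 1060 CPM, and also the highest summed level of 6 red blood cell genes, 191 CPM. Female responses that moved by more than 1.5 times without UVB female 2 are given both ways, and male responses of members whose call or sign changed without a pair of no-UVB males are given without it here or in the closing section.

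Few members passed the test in any comparison. Genes were called at an adjusted p under 0.1 (edgeR, quasi-likelihood, Benjamini-Hochberg over all genes tested). In males, 1 of 10 members rose after UVB, *Selp*, while 29.0% of the 16535 genes tested rose, and 1 fell, *Ackr1*, while 30.5% of all genes fell. DESeq2's Wald test called 2 higher, *Selp* and *Sele*, and 1 lower. In females 0 of 10 members rose and 0 fell, against 12.8% and 10.6% of 16883 genes. No member reached p under 0.05 in females even before adjustment (0 of 10), and DESeq2's Wald test also called 0. When a log2 fold change beyond 1 was also required, 7.39% of all genes changed in males and 2.71% in females, and 0 of 10 members did in either sex. The difference between the male and the female response, tested as an interaction over 16 mice, was called for 0 members in either direction by edgeR and by DESeq2, against 2.75% of 17406 genes with a more positive response in males and 4.25% with a more negative one. *Vcam1* alone had an unadjusted p under 0.05 there. Without UVB, 1 member was higher in males than in females, *Ackr1*, against 7.21% of all genes, and 2 were lower, *Icam1* and *Kdr*, against 4.58%. After UVB, 0 were higher in males by either tool, also at an unadjusted p under 0.05, against 12.8% of all genes, and 1 was lower, *Kdr*, against 12.5%. With 10 members, 1 call is a share of 10%, and in each comparison and direction the members' count was within about 2 members of what the share of all genes gives, which is no result about the members. Another scaling moved the split over all genes: in the interaction 478 more positive and 740 more negative genes became 687 and 641 with DESeq2's size factors and 782 and 624 with TMM factors made without the 100 most abundant genes, while upper quartile scaling turned 2162 higher and 1787 lower into 1737 and 2157 in females, 4802 and 5051 into 3880 and 6130 in males, and 2222 and 2169 into 1659 and 2736 between the sexes after UVB.

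**Figure D1:**
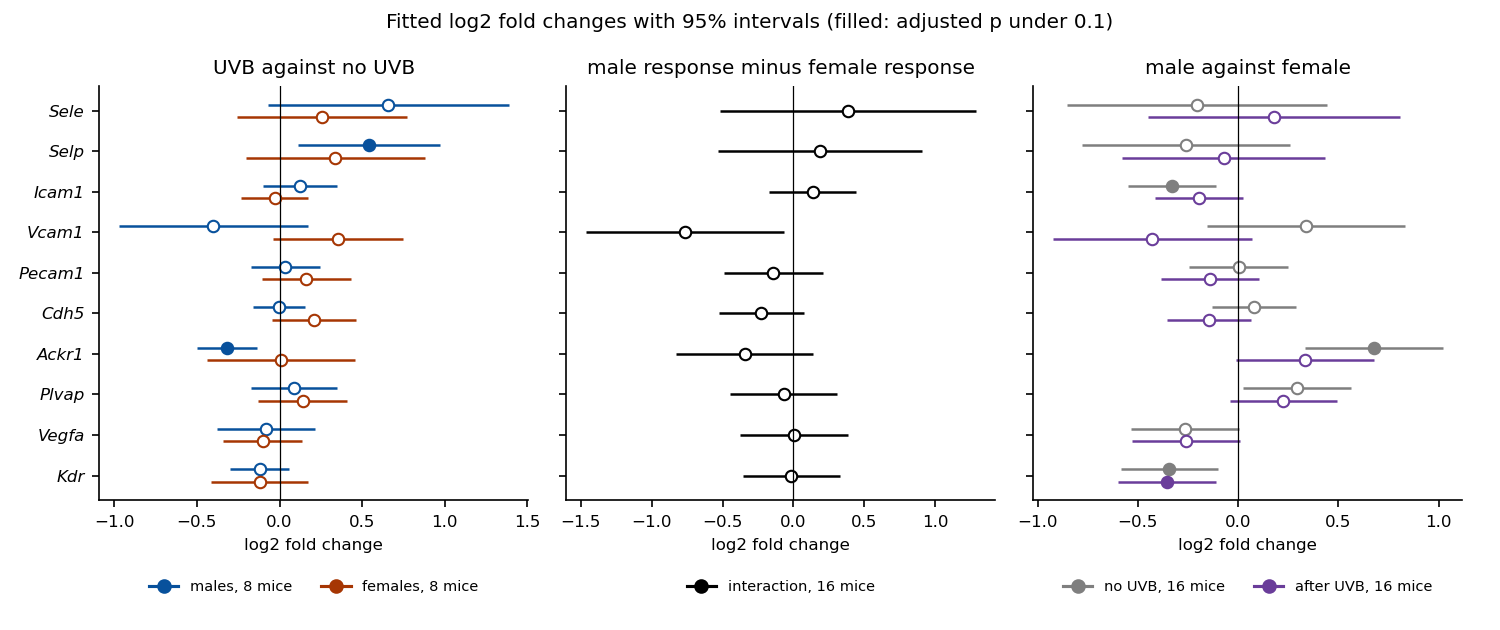
Log2 fold changes of the 10 members (points) with their 95% intervals (lines) for UVB against no UVB in each sex (left), for the male minus the female response (middle) and for males against females without and after UVB (right), with filled points at an adjusted p under 0.1. Filled points are those of *Selp* and *Ackr1* in males on the left, and of *Icam1*, *Ackr1* and *Kdr* on the right, with *Kdr* filled both without and after UVB.

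Compared per length of their exons, the members spanned more than an order of magnitude. *Plvap* was highest, at 25.4 ± 4.13 CPM per kilobase (mean ± SD over 16 mice), and *Cdh5* followed at 19.7 ± 2.27. *Vegfa* lay at 16.6 ± 2.67, *Ackr1* at 15.6 ± 3.91, *Pecam1* at 12.2 ± 1.53 and *Icam1* at 9.64 ± 1.30. The receptor gene *Kdr*, at 5.87 ± 1.05, was above the selectin genes in every mouse, with *Selp* at 2.86 ± 0.861 and *Sele* at 1.76 ± 0.553, and *Vcam1* was lowest at 1.73 ± 0.473. In this order the ranges over 16 mice overlapped between every pair of neighbours, but the upper gene was higher within each of the 16 mice for *Plvap* over *Cdh5*, *Pecam1* over *Icam1*, *Icam1* over *Kdr*, *Kdr* over *Selp* and *Selp* over *Sele*. The order was less settled elsewhere, and that of *Ackr1* depends on the bases counted, since 361 of its 1405 exon bases are shared with *Cadm3*: per kilobase of the 1044 unshared bases it was at 21.0 ± 5.26 and above *Cdh5* in 10 and *Vegfa* in 11 of 16 mice. Over all exon bases, *Vegfa* exceeded *Ackr1* in 9 of 16 mice, *Sele* exceeded *Vcam1* in 11, *Ackr1* exceeded *Pecam1* in 13 and *Cdh5* exceeded *Vegfa* in 14.

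**Figure D2:**
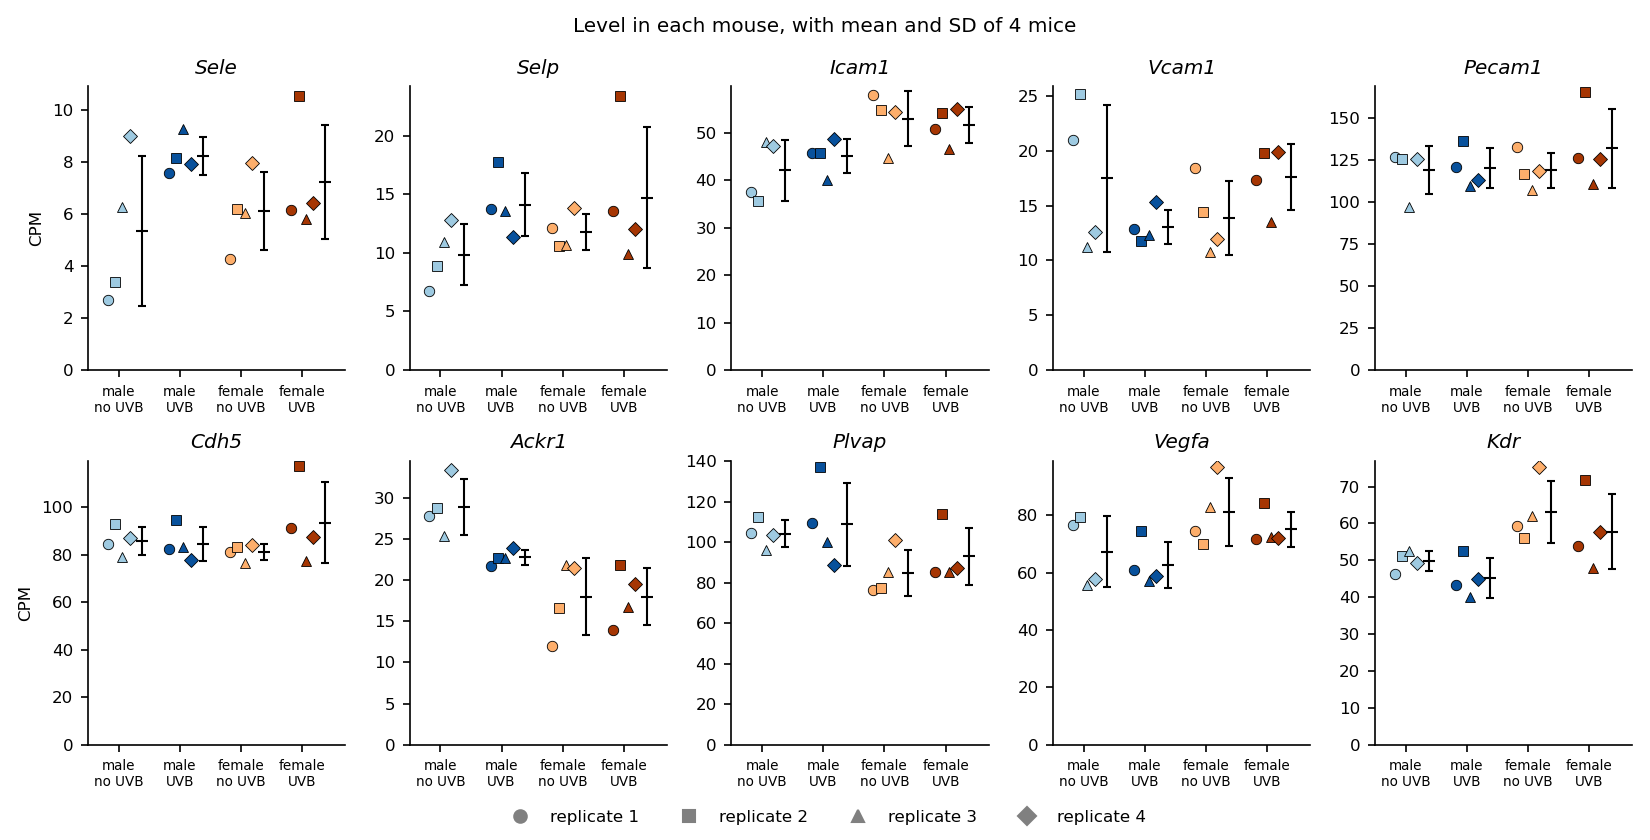
Level of each member (CPM, axis from 0) in the 16 mice, with 4 mice per group, marker shapes for the replicate number, and a black dash and bar for the group's mean and SD. *Sele* and *Selp* were lowest and *Vcam1* highest in no-UVB males 1 and 2, and the *Ackr1* levels of no-UVB males all lay above those of UVB males.

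The selectin genes lie side by side on mouse chromosome 1, with 56777 bases between them, and share its plus strand. On the GRCm39 build *Sele* (ENSMUSG00000026582.7) spans chr1:163867401-163886055 and *Selp* (ENSMUSG00000026580.17) chr1:163942833-163977595. The stretches before their RefSeq starts are shown because this neighbouring pair varied together more than most members did and because E-selectin and P-selectin act in the same step. RefSeq entries of GRCm38.p6 were placed on GRCm39 by exact match, at chr1:163875553-163875739 for *Sele* (-250 to -64 from the start, the rest of the window being annotated as exon) and chr1:163942583-163942832 for *Selp* (-250 to -1). Capitals mark the AP-1 letters TGANTCA, read on both strands:
Sele: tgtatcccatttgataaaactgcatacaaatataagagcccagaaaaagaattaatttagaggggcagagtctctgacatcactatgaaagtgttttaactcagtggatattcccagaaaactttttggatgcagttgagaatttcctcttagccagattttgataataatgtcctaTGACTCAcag
Selp: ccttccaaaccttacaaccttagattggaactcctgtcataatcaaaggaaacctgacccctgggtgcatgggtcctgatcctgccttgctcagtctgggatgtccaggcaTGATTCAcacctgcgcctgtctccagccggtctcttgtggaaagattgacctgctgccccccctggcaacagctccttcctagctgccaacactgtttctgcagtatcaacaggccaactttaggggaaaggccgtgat
Each held the letters once, at -73 to -67 in *Sele* and at -139 to -133 in *Selp*, and 6.7% of the 32851 promoters of that table hold them within 250 bases of the start. The TATA box letters TATAAA were found at -49 to -44 of *Sele*, outside the printed stretch, and in 12.4% of all entries. A match describes the letters only and is no evidence of a bound factor. The annotated gene *Sele* begins further upstream in GENCODE M39 than in RefSeq.

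*Sele* stood at 2.70, 3.41, 6.28 and 9.0 CPM in no-UVB males 1 to 4, and at 7.60, 8.17, 9.29 and 7.92 in UVB males. No-UVB males 1 and 2 were the lowest of the 16 mice, while no-UVB male 4 lay within the range of the UVB males. The male response was 0.66 on the log2 scale (SE 0.322, 95% interval -0.07 to 1.39) and did not pass (edgeR adjusted p = 0.116). It passed in 5 of 19 alternatives, among them with DESeq2's Wald test (adjusted p = 0.070), with all 16 mice in a single fit (0.0967), without no-UVB male 4 and without no-UVB males 3 and 4. In females *Sele* was at 4.29, 6.18, 6.06 and 7.98 CPM without UVB and at 6.18, 10.5, 5.83 and 6.42 after it. These groups overlapped, with UVB female 2 above all others, and the fitted difference was 0.26 (-0.25 to 0.77, edgeR adjusted p = 0.489). Without UVB female 2 it was 0.01.

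*Selp* rose in males. Its levels were 6.76, 8.84, 10.9 and 12.8 CPM in no-UVB males and 13.8, 17.7, 13.6 and 11.3 in UVB males, a change of 0.54 on the log2 scale, or 1.46-fold (SE 0.193, 0.11 to 0.97, edgeR adjusted p = 0.0375). The groups overlapped, as UVB male 4 was below no-UVB male 4. The rise rested on no-UVB males 1 and 2, without which it was 0.27 and not called (adjusted p = 0.215). Females had 12.1, 10.5, 10.7 and 13.8 CPM without UVB and 13.6, 23.4, 9.86 and 12.0 after UVB, a difference of 0.34 (-0.20 to 0.88, edgeR adjusted p = 0.384). UVB female 2 held almost all of this difference, which was 0.01 without that mouse. *Selp* is also a platelet gene: of 7 platelet markers, *Gp9*, *Gp1bb*, *Gp6* and *Treml1* had at most 3 counts in every mouse, and the summed level of the 7 was 58.0 to 71.0 CPM in no-UVB males and 54.3 to 69.4 in UVB males. Most of that sum was *Pf4*, at 50.1 to 61.9 and 45.3 to 58.8 CPM. *Ppbp*, under the filter with at most 15 counts in any mouse, was at 0.173 to 0.401 CPM in no-UVB males and 0.467 to 0.638 in UVB males, which did not overlap. Of the others, *Itga2b*, a platelet integrin that other blood cells also carry, was at 0.29 in males, close to the threshold (edgeR adjusted p = 0.0919) and called in 3 of 8 fits that left out 1 mouse.

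*Icam1* (ENSMUSG00000037405.9, chr9:20926672-20940113, plus strand), the ligand of the leukocyte integrin LFA-1, was not called in either UVB response. Its levels were 37.5, 35.7, 48.0 and 47.2 CPM in no-UVB males and 45.7, 45.8, 40.1 and 48.8 in UVB males, and the difference of 0.12 (-0.10 to 0.35) did not pass (edgeR adjusted p = 0.339). Leaving out single mice gave 0.058 (without no-UVB male 2) to 0.208 (without no-UVB male 3), never called. Females were at 57.9, 54.7, 44.6 and 54.5 CPM without UVB and 50.7, 54.2, 46.6 and 55.0 after it, a difference of -0.03 (-0.23 to 0.18, edgeR adjusted p = 0.870), and -0.06 without UVB female 2. Between the sexes *Icam1* was lower in no-UVB males than in no-UVB females, with means of 42.1 ± 6.39 and 52.9 ± 5.77 CPM (SD, n = 4), a difference of -0.33 (SE 0.103, edgeR adjusted p = 0.0627). No-UVB female 3, at 44.6 CPM, lay within the male range. The call was lost when 1 of 4 mice was left out: no-UVB male 1 (adjusted p = 0.171), no-UVB male 2 (0.194), no-UVB female 1 (0.155) or no-UVB female 2 (0.117). After UVB the difference was -0.19 (edgeR adjusted p = 0.204).

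*Vcam1* (ENSMUSG00000027962.15, chr3:115903598-115923355, minus strand), the ligand of the integrin VLA-4, had opposite signs in the sexes, and neither response passed. No-UVB males were at 21.0, 25.2, 11.2 and 12.6 CPM and UVB males at 12.9, 11.8, 12.3 and 15.3. The first pair of no-UVB males were the highest of the 16 mice and the second pair among the lowest, the reverse of *Sele*. The male response was -0.40 (SE 0.252, -0.97 to 0.17, edgeR adjusted p = 0.214), and without no-UVB male 3 it was -0.55 and past the threshold (adjusted p = 0.0510). Leaving out no-UVB male 2 gave -0.16 (adjusted p = 0.549). Females were at 18.4, 14.4, 10.8 and 12.0 CPM without UVB and 17.3, 19.8, 13.5 and 19.9 after UVB, overlapping groups that differed by 0.35 (-0.04 to 0.75, edgeR adjusted p = 0.211). That difference was 0.52 and past the threshold without no-UVB female 1 (adjusted p = 0.0540), and 0.25 without no-UVB female 3 (0.395). The difference between the responses was -0.77 (-1.47 to -0.07), with an unadjusted p of 0.0336 that became 0.199 after adjustment in edgeR, and 0.0848 without no-UVB male 3. Without no-UVB male 2 it was -0.54 (adjusted p = 0.385).

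Both junction genes were among the most even members. *Pecam1* (ENSMUSG00000020717.20, chr11:106543689-106641454, minus strand) encodes an adhesion molecule of endothelium, platelets and leukocytes, and *Cdh5* (ENSMUSG00000031871.10, chr8:104828231-104871143, plus strand) encodes VE-cadherin, which holds endothelial cells together. *Pecam1* was at 97.2 to 127 CPM in no-UVB males, 109 to 136 in UVB males, 107 to 132 in no-UVB females and 110.5 to 165 in UVB females. *Cdh5* was at 79.1 to 93.1, 77.9 to 94.6, 76.6 to 84.1 and 77.5 to 118 CPM in the same order. In males the 95% intervals of the UVB response were -0.17 to 0.24 for *Pecam1* and -0.16 to 0.16 for *Cdh5* on the log2 scale, and as a fold the interval of *Cdh5* was 0.894 to 1.11. In females the fitted values were 0.16 (-0.11 to 0.43, edgeR adjusted p = 0.40) and 0.21 (-0.05 to 0.46, edgeR adjusted p = 0.251). The highest mouse for both was UVB female 2, at 165 and 118 CPM, and without it the female values were 0.03 and 0.07.

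*Ackr1* (ENSMUSG00000037872.6, chr1:173159453-173161317, minus strand) encodes an atypical chemokine receptor of venules and red cells, which binds chemokines without signalling. It fell in males. No-UVB males were at 27.8, 28.8, 25.3 and 33.4 CPM and UVB males at 21.8, 22.7, 22.6 and 23.9. Every no-UVB male lay above every UVB male, and the fall was 0.32 on the log2 scale, to 0.802 of the no-UVB level (SE 0.0832, -0.50 to -0.14, edgeR adjusted p = 0.00765). Females were at 12.0, 16.6, 21.9 and 21.5 CPM without UVB and 13.9, 21.8, 16.7 and 19.5 after UVB, a difference of 0.01 with a wide interval (-0.44 to 0.46, edgeR adjusted p = 0.979), and -0.10 without UVB female 2. The 2 responses were not shown to differ (interaction -0.34, -0.83 to 0.14, edgeR adjusted p = 0.412). Without UVB every male was above every female, by 0.68 on the log2 scale or 1.60-fold (SE 0.161, edgeR adjusted p = 0.0174). After UVB the means were 22.8 ± 0.888 CPM in males and 18.0 ± 3.41 in females (SD, n = 4), and the difference of 0.33 did not pass (edgeR adjusted p = 0.168). It passed when no-UVB female 1 was left out of the fit over all mice (adjusted p = 0.0771), a mouse of neither group compared.

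*Ackr1* shares exon bases with a neighbour. Of its 1405 exon bases, 361 (25.7%) are also exon of *Cadm3*, an adhesion gene of nerves, on the same strand (chr1:173160825-173195452). The deposited counts hold ambiguous reads apart, credited to no gene, at 1.17 to 1.34% of reads per library. Whether the annotation used for counting has the same shared bases is not known. *Cadm3* was the more abundant, at 85.3 to 189 CPM, and moved the same way. It fell in males by 0.66 (edgeR adjusted p = 2.40e-04), stood 0.56 higher in no-UVB males than in no-UVB females (edgeR adjusted p = 0.0219), and differed by -0.21 between UVB and no-UVB females (edgeR adjusted p = 0.377). The level of *Ackr1* was 15.0 to 17.7% of that of *Cadm3* in no-UVB males, 18.3 to 23.6% in UVB males, 14.1 to 16.9% in no-UVB females and 15.6 to 23.7% in UVB females. After the group means were removed, r between their log2 levels was 0.73 over 16 mice. The part of *Cadm3* in the *Ackr1* differences was not tested. The window before the RefSeq start of *Ackr1* lies within exons of *Ackr1* and *Cadm3*, and the window of *Icam1* within an exon of *Icam1*.

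**Figure D3:**
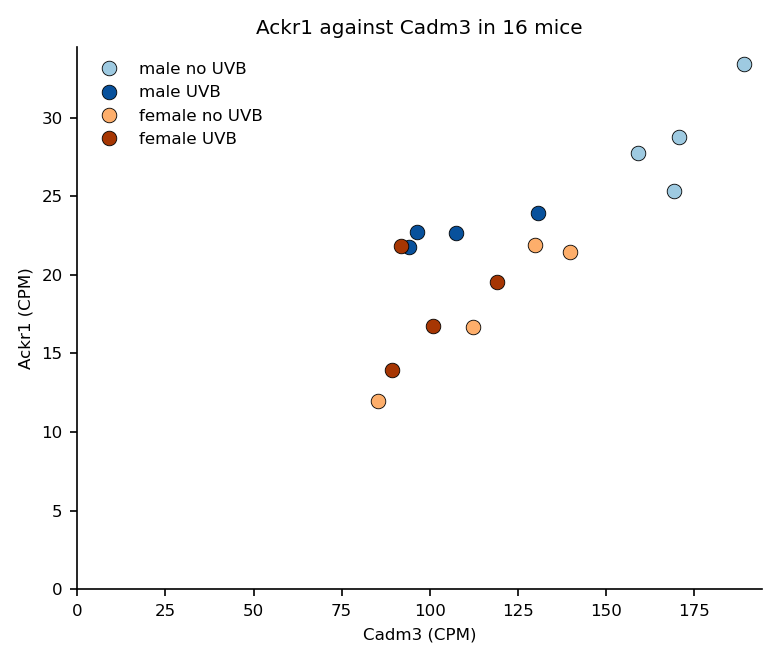
Level of *Ackr1* against that of *Cadm3* (both CPM, axes from 0) in the 16 mice, coloured by group. No-UVB males are highest in both genes, and UVB males had 18.3 to 23.6% as much *Ackr1* as *Cadm3*, beside 15.0 to 17.7% in no-UVB males.

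*Plvap* (ENSMUSG00000034845.7, chr8:71948674-71964506, minus strand), which encodes the protein of the diaphragms across fenestrae and caveolae, was at 96.0 to 112 CPM in no-UVB males, 88.9 to 137 in UVB males, 76.2 to 101 in no-UVB females and 85.5 to 114 in UVB females. The highest male was UVB male 2, at 137 CPM, and the highest female UVB female 2, at 114. The responses were 0.09 in males (-0.17 to 0.35, edgeR adjusted p = 0.567) and 0.14 in females (-0.13 to 0.41, edgeR adjusted p = 0.478). Without UVB female 2 the female value was 0.02. Males were above females by 0.29 without UVB (0.03 to 0.56) and by 0.22 after UVB (-0.04 to 0.49), and neither difference passed (edgeR adjusted p = 0.180 and 0.235). The second passed without UVB female 2 (adjusted p = 0.0799). The gene shares 834 exon bases with *Gtpbp3* on the opposite strand, and the counts were made by strand.

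*Kdr* (ENSMUSG00000062960.11, chr5:76093487-76139884, minus strand) is the receptor through which VEGF-A drives endothelial growth and permeability. It was lower in males than in females in both conditions, and its promoter is shown for that reason, from chr5:76139119-76139365 on the minus strand of GRCm39 (-250 to -4 from the RefSeq start). Capitals mark the ETS letters CCGGAA, here on the other strand at -153 to -148, and a match to the kB motif at -74 to -65:
Kdr: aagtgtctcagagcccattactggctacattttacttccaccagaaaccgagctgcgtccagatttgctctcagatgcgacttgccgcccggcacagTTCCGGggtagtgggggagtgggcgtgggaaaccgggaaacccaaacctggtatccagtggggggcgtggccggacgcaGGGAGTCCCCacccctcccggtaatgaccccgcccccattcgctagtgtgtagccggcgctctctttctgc
ETS letters were found in 12.0% and the kB motif in 3.9% of the promoters of that table. *Vegfa* (ENSMUSG00000023951.19, chr17:46327919-46343309, minus strand) had a match to the kB motif at -118 to -109 and *Icam1* had the ETS letters 3 times. The other members with an entry, *Sele*, *Selp* and *Ackr1*, are described above. The table was not matched by *Vcam1*, *Pecam1*, *Cdh5* or *Plvap*.

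*Kdr* levels were 59.2, 56.0, 62.1 and 75.2 CPM in no-UVB females and 46.3, 51.0, 52.4 and 49.2 in no-UVB males. Every no-UVB female was above every no-UVB male, and the difference was -0.34 on the log2 scale (SE 0.115, edgeR adjusted p = 0.0827). This call was close to the threshold and was lost without any 1 of no-UVB females 1, 3 and 4 (adjusted p = 0.102, 0.109 and 0.170) or of no-UVB males 1, 2 and 4 (0.191, 0.149 and 0.161). After UVB the levels were 53.8, 71.6, 48.0 and 57.7 CPM in females and 43.2, 52.6, 40.1 and 44.9 in males. These groups overlapped, since UVB female 3 lay below UVB male 2. The difference was -0.36 (SE 0.116, edgeR adjusted p = 0.0432) and was lost without UVB female 2 (adjusted p = 0.147), UVB male 1 (0.109) or UVB male 3 (0.119). Of the 22 identity genes, 0 were called higher and 3 lower in males after UVB, with a median of -0.147. For 6 lymphatic genes these were 0 and 4, with -0.355, beside 12.8% and 12.5% of all genes. The log2 ratio of *Kdr* to the 22 genes differed between the sexes by -0.41 without UVB and -0.21 after it, which was not tested. The UVB responses of *Kdr* were -0.12 in males (-0.30 to 0.06, edgeR adjusted p = 0.244) and -0.12 in females (-0.41 to 0.17, edgeR adjusted p = 0.587). The female value was -0.24 without UVB female 2 (adjusted p = 0.168) and -0.03 without no-UVB female 4 (0.915). The male response passed without UVB male 2, at -0.20 (adjusted p = 0.0350), and was -0.07 without UVB male 3 (0.533).

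*Vegfa* was at 55.5 to 79.4 CPM in no-UVB males, 56.9 to 74.6 in UVB males, 70.0 to 96.9 in no-UVB females and 71.6 to 84.3 in UVB females. No-UVB males 1 and 2, at 76.7 and 79.4 CPM, were well above no-UVB males 3 and 4, at 55.5 and 57.9. The responses were -0.08 in males (-0.38 to 0.21, edgeR adjusted p = 0.630) and -0.10 in females (-0.34 to 0.14, edgeR adjusted p = 0.564), the latter -0.17 without UVB female 2. Without no-UVB female 4 the female value was -0.009 (adjusted p = 0.965). Males were lower by 0.27 without UVB and 0.26 after it, and neither difference passed (edgeR adjusted p = 0.229 and 0.169), although the second did without UVB male 2 (adjusted p = 0.0911). Of the 8 keratinocyte markers, *Krt1*, *Krt10*, *Krt14*, *Itga6* and *Itgb4* rose in males, while *Krt5*, *Trp63* and *Col17a1* were at 0.29, 0.07 and -0.11 and did not pass (edgeR adjusted p = 0.151, 0.698 and 0.389).

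The no-UVB males decided several male values. With no-UVB males 1 and 2 left out, an alternative chosen after seeing the data, the male response of *Selp* was 0.27 (adjusted p = 0.215) and that of *Sele* 0.14 (adjusted p = 0.511). The *Vcam1* response turned to 0.17 and the *Vegfa* response to 0.17, and no member was called higher. With no-UVB males 3 and 4 left out, *Sele* rose by 1.47 (adjusted p = 6.18e-05), *Selp* by 0.89 (0.00314) and *Icam1* by 0.34 (0.00789), while *Vcam1*, at -0.78 (4.75e-04), and *Vegfa*, at -0.27 (0.0466), fell. The interaction was then called for *Sele*, at 1.17 (adjusted p = 0.0566), and for *Vcam1*, at -1.17 (0.0209). Only *Ackr1* was called in the male response under both, at -0.34 (adjusted p = 0.0309) and -0.27 (0.014). A single mouse could also decide: without no-UVB male 4, *Sele* rose by 1.01 (adjusted p = 0.00863). Between the sexes without UVB, *Ackr1* was called under both (0.0926 and 0.0671), *Icam1* only without males 3 and 4 (0.00787), and *Kdr* under neither (0.340 and 0.181). Without males 3 and 4, *Sele* was also called lower (-1.0, adjusted p = 0.0415) and *Vcam1* higher (0.74, adjusted p = 0.0343) in no-UVB males, and without males 1 and 2 *Vegfa* was called lower (-0.51, adjusted p = 0.050).

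**Figure D4:**
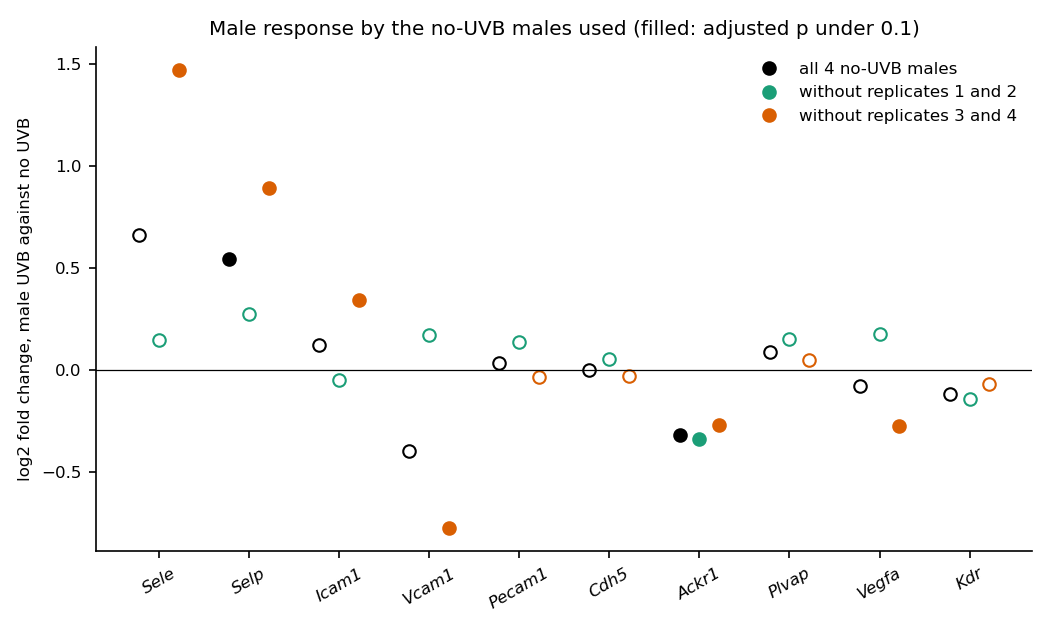
Log2 fold change of each member in UVB against no-UVB males, fitted with all 4 no-UVB males, without replicates 1 and 2, and without replicates 3 and 4, with filled points at an adjusted p under 0.1. The fits are far apart for *Sele*, from 0.14 to 1.47, and for *Vcam1*, from -0.78 to 0.17, and close together for *Cdh5*, *Ackr1* and *Kdr*.

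Set against other endothelial genes of the same mouse, *Cdh5* was nearly constant. The log2 ratio of *Cdh5* to the geometric mean of the 22 endothelial identity genes was 1.59 ± 0.01 in no-UVB males, 1.61 ± 0.03 in UVB males, 1.59 ± 0.08 in no-UVB females and 1.61 ± 0.05 in UVB females (SD, n = 4), the narrowest spread of the members in no-UVB males. *Kdr* was at 1.22 ± 0.14 in no-UVB females and 0.92 ± 0.09 in UVB females, and these ranges did not overlap, although its own level did not pass the test. In males it was 0.81 ± 0.12 without UVB and 0.70 ± 0.09 after it, with overlap. *Ackr1* was at 0.01 ± 0.14 in no-UVB males and -0.28 ± 0.15 in UVB males, again without overlap. The ratio of *Sele* in no-UVB males had the widest spread of all, -2.57 ± 0.83, and was -1.75 ± 0.19 in UVB males. These ratios are descriptions and were not tested, and the 22 genes were not a fixed standard, as the list's own counts show.

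**Figure D5:**
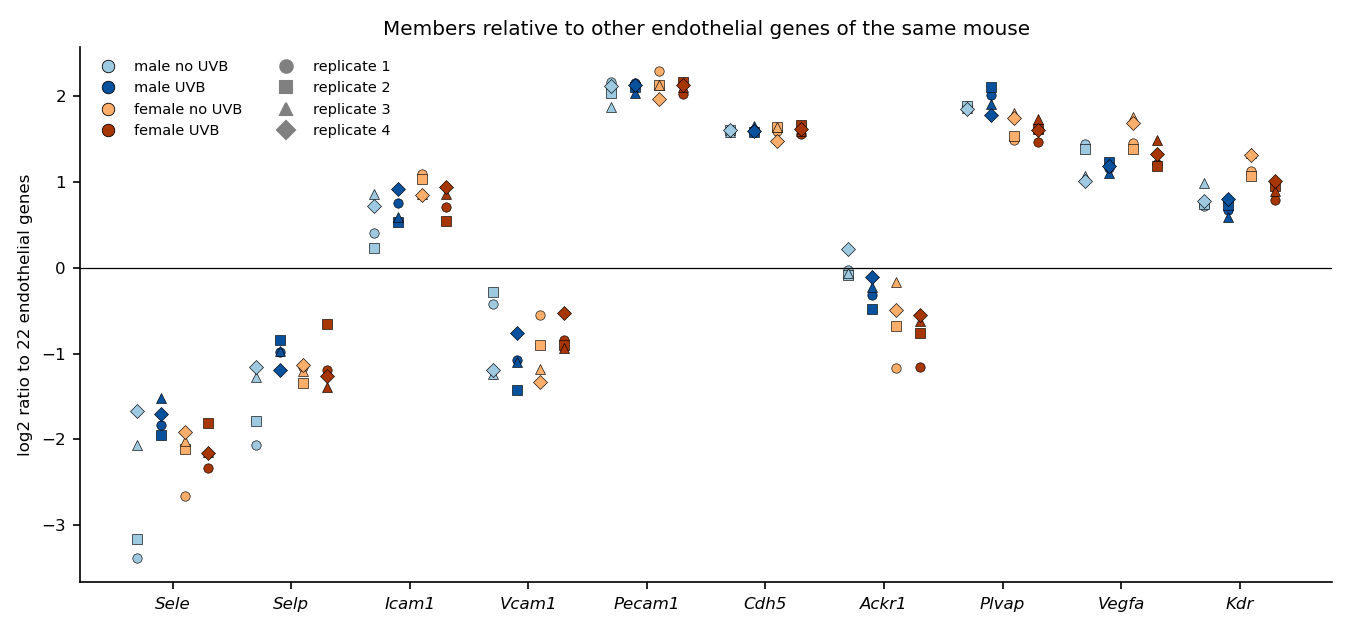
Log2 ratio of each member to the geometric mean of 22 endothelial genes in the same mouse, for 16 mice coloured by group with shapes for the replicate number (0: equal CPM). *Cdh5* is nearly flat over all mice, *Kdr* is lower in each UVB female than in each no-UVB female, and no-UVB males 1 and 2 are lowest for *Sele* and *Selp*.

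Among themselves the members varied loosely together. After the group means were removed, r over the 16 mice was above 0 for 35 of 45 pairs and above 0.5 for 18, with a median of 0.37, and the points of each pair share a library and a piece of skin. *Pecam1* and *Cdh5* were the closest pair (r = 0.86), followed by *Plvap* and *Vegfa* (0.79), *Plvap* and *Kdr* (0.78), and then, at 0.75 each, *Selp* and *Kdr*, *Sele* and *Selp*, *Selp* and *Cdh5* and *Cdh5* and *Plvap*. *Sele* and *Vcam1* were the only pair below -0.5, at -0.60. Leaving out the pair of mice farthest from the median gave 0.80 for *Pecam1* and *Cdh5*, 0.64 for *Sele* and *Selp* and -0.49 for *Sele* and *Vcam1*.

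The genes most like each member over the 16 mice were sought among 15107 genes by Pearson's r of log2 levels, with the groups left in. *Cdh5* was most like other endothelial genes, *Tie1* (r = 0.87), *Vwf* (r = 0.86) and *Esam* (r = 0.85). *Pecam1* was most like *Rps14* (r = 0.89), *Cldn5* (r = 0.87) and *Gm2a* (r = 0.83), of which *Cldn5* is a tight junction gene of endothelium. For *Icam1* they were *Irf1* (r = 0.93), *Irf8* (r = 0.90) and *Gbp5* (r = 0.89), all genes of the interferon response. *Vcam1* gave *Rgcc* (r = 0.88), *Arrdc2* (r = 0.88) and *Edn1* (r = 0.87), and *Edn1* encodes endothelin, which endothelium makes. The nearest genes to *Ackr1* were *Ret* (r = 0.93), *Surf4* (r = 0.92) and *Lrg1* (r = 0.92). For *Sele* they were *Cdc25c* (r = 0.87), *Gm44777* (r = 0.86) and *Psat1* (r = 0.83), and for *Selp* *Plekhm1* (r = 0.86), *Csf2rb* (r = 0.83) and *Cd300c2* (r = 0.83). *Plvap* gave *Lhx6* (r = 0.88), *Snx3* (r = 0.88) and *Mrps18a* (r = 0.86), *Vegfa* gave *Cnr1* (r = 0.92), *Fam228b* (r = 0.85) and *Gucy1a1* (r = 0.82) and *Kdr* gave *Pilrb1* (r = 0.90), *Ly9* (r = 0.90) and *Ebf1* (r = 0.90). These values come from a search over all genes and were not tested.

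Other endothelial genes were called in both directions in males. Of the calls of list genes, 83 of 106 in males and 14 of 29 in females held in each fit that left out 1 mouse. List counts here and below stand beside 29.0% of all genes called higher and 30.5% lower in males, and 12.8% and 10.6% in females. No list was tested against these shares. Of the 22 identity genes 4 rose and 4 fell, counts that lie below the 29.0% and 30.5% of all genes, with a median log2 change of 0.01 beside -0.02 over all genes. The largest were *Sox18*, a transcription factor of vessel growth, at 0.57 (edgeR adjusted p = 0.00965), *Ramp2*, the partner of the adrenomedullin receptor, at -0.48 (9.33e-04), and *Robo4*, a guidance receptor of endothelium, at -0.48 (0.00154). In females 2 rose and 0 fell of 22, namely *Sox18* (0.40, edgeR adjusted p = 0.0826) and *Ptprb* (0.31, 0.0493), the latter named after its value was seen. These calls held in 2 of 8 and 5 of 8 fits that left out 1 mouse. The female median was 0.19 with 21 of 22 above 0, beside a median of 0.00 over all genes. Without UVB female 2 it was 0.06, with 15 of 22 above 0. Lymphatic endothelium had 6 genes, of which 0 rose and 2 fell in males (*Reln* -0.40, *Mmrn1* -0.19) and 1 rose and 1 fell in females (*Flt4* 0.21, *Reln* -0.27), where the calls of *Mmrn1* and of both female genes were lost in some of these fits (held in 6 of 8, 2 of 8 and 3 of 8). Among 10 genes of mural cells, the pericytes and smooth muscle that wrap vessels, 2 rose and 5 fell in males and 0 rose and 3 fell in females. Those that rose were the pericyte markers *Rgs5*, at 0.40, and *Mcam*, at 0.34 (edgeR adjusted p = 0.00583 and 9.46e-04), while the pericyte channel genes *Abcc9* and *Kcnj8* fell by 0.40 and 0.43 (2.80e-04 and 0.0637), the second call holding in 3 of 8 fits that left out 1 mouse. These genes were named after their values were seen. The contractile genes *Acta2* and *Myh11* and the pericyte proteoglycan gene *Cspg4* fell in both sexes, by 0.65, 0.52 and 0.58 in males and by 0.39, 0.27 and 0.36 in females, where the call of *Myh11* held in 3 of 8 fits that left out 1 mouse. RNA came from whole skin, so the cells in which these genes fell are not known.

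Further adhesion and transmigration genes of vessel walls were tested for 12 of 15, and 2 rose and 5 fell in males. In females edgeR and DESeq2 called 0 of them, and 4 had an unadjusted p under 0.05. *Jam3*, *Cd34* and *Cd99l2*, which encode junctional and surface proteins along the route of leukocytes, fell in males by 0.67, 0.62 and 0.51 (edgeR adjusted p = 0.00117, 5.25e-04 and 2.11e-04). The 2 that rose in males were *F11r*, at 0.487, and *Mcam*, at 0.345 (edgeR adjusted p = 2.79e-05 and 9.46e-04), named after their values were seen. *Glycam1* and *Chst4*, genes of the high venules of lymph nodes, had at most 3 counts in every mouse. On the leukocyte side, of 11 genes of ligands and integrins 2 rose and 7 fell in males, and 0 rose and 2 fell in females. *Cd44*, which keratinocytes also carry, rose in males by 0.68 (edgeR adjusted p = 6.97e-06). *Itgb2*, the chain of LFA-1 that binds ICAM1, fell by 0.44 in males (8.20e-04) and 0.39 in females (0.0494, held in 5 of 8 fits that left out 1 mouse), and *Itga4*, the chain of VLA-4 that binds VCAM1, by 0.34 (0.00106) and 0.38 (0.0125). *Selplg*, the main ligand of P-selectin, fell in males by 0.22 (0.0222), a call lost without no-UVB males 1 and 2 (-0.20).

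Among 8 other VEGF ligands and receptors 0 rose and 4 fell in males, beside 29.0% and 30.5% of all genes. *Vegfc* was at -0.53, the co-receptor gene *Nrp1* at -0.39 and *Vegfb* at -0.38 (edgeR adjusted p = 0.00233, 0.00156 and 0.00143). In females 1 rose and 0 fell, and the gene that rose was *Flt4*, the receptor of VEGF-C, at 0.21 (0.0839), a call that held in 2 of 8 fits that left out 1 mouse. Of 6 angiopoietin and Tie genes 0 rose and 3 fell in males and 1 rose and 1 fell in females. *Angpt4* fell in both sexes, by 0.96 and 2.0, and *Angpt1*, made by mural cells, and *Angpt2*, made by endothelium, fell in males by 0.78 and 0.38. Without no-UVB males 1 and 2 the male values of *Angpt4* and *Angpt2* were -0.33 and -0.24 and were not called. Inhibitors of angiogenesis numbered 7, of which 0 rose and 4 fell in males and 0 rose and 3 fell in females, among them *Serpinf1* in males (-0.87) and *Thbs2* in females (-0.63). *Thbs1* was called in both, at -0.45 and -0.50, and kept its call in 1 of 8 and 4 of 8 fits that left out 1 mouse. The 9 hypoxia genes, a known control of VEGF-A, gave 3 that rose and 2 that fell in males, with *Egln3* at 0.90, *Slc2a1* at 0.63 and *Bnip3* at -0.48, the last not called without no-UVB males 1 and 2 (-0.27). In females edgeR and DESeq2 called 0 of the 9, and 1 had an unadjusted p under 0.05.

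The inducers of endothelial activation and genes of the NF-kB pathway, 15 in all, had 13 tested in males, of which 6 rose and 4 fell. *Il1b*, a classic inducer of E-selectin, rose in both sexes, by 1.61 in males and 1.03 in females (edgeR adjusted p = 1.27e-04 and 0.0142), and in females it was the 1 gene of 14 tested that passed. *Tnf* rose in males by 0.84 (0.0291), but was not called without no-UVB males 1 and 2 (0.37). The NF-kB target genes and feedback inhibitors *Tnfaip3* and *Nfkbia* fell in males, by 1.19 and 1.11 (0.0404 and 0.0235). Their size turned on the no-UVB males, with -0.27 and -0.40 without males 1 and 2 and -1.72 and -1.56 without males 3 and 4, and *Tnfaip3* was called in 17 of 19 alternatives. Summed over the list, no-UVB males 1 and 2 were at 911 and 909 CPM, no-UVB males 3 and 4 at 723 and 719.6, and UVB males at 748 to 759, with the high pair the same as for *Vcam1* and the reverse of *Sele*. Within the list, *Nfkbia* ranged from 111 to 260 CPM and *Tnfaip3* from 25.9 to 74.4 in no-UVB males. Of 9 genes of the vessel barrier and caveolae, 3 rose and 4 fell in males, with *Cav1* at -0.44 (not called without no-UVB males 1 and 2, -0.27), *Cavin1* at -0.41 and, among those that rose, *Ctnnd1* at 0.38 and *Tjp1* at 0.36, the last named after its value was seen, and 1 rose and 0 fell in females.

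Markers of other cells moved with UVB and with sex, and their part in the members' values was not tested. Of 10 neutrophil genes 7 were tested in males and 5 rose and 0 fell, with summed levels of 10.8 to 18.8 CPM in no-UVB males and 55.1 to 162 in UVB males, and of 10.9 to 16.8 and 20.5 to 31.3 in the females, where 2 rose and 0 fell of 5. *Ly6g* had at most 3 counts in every mouse. Keratinocyte genes (5 of 8 in males, 3 in females) and stress keratins (4 and 3 of 4) rose. Monocyte and macrophage genes gave 3 higher and 2 lower of 10 in males and 0 and 1 in females, and T cell genes 1 and 6 of 7 in males and 0 and 3 in females. In males, 6 of 8 fibroblast, 6 of 6 skeletal muscle and 4 of 6 adipocyte genes fell, while in females 1 fibroblast gene fell and 1 rose, and edgeR and DESeq2 called 0 of the 6 muscle and 0 of the 6 adipocyte genes, with 0 at an unadjusted p under 0.05. The fibroblast genes summed to 79770 to 86980 CPM in no-UVB males, 28840 to 39790 in UVB males, 19870 to 21120 in no-UVB females and 12740 to 22640 in UVB females. Of 6 red blood cell genes 5 were tested, and edgeR and DESeq2 called 0 in either sex, with 0 in males and 0 in females at an unadjusted p under 0.05.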

How the data were processed

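The authors deposited 1 table of whole-number gene counts per mouse, made with STAR on GRCm39, per the labels and the methods, with no normalization. The version of STAR and the annotation are not given in the sources used here. The counts of the strand reported by the directional kit were used, since the other strand held 3.63 to 4.23% of reads on genes. No table was left out. Names and positions came from GENCODE M39, which holds 54749 of 55359 identifiers. Libraries had 16495776 to 33404831 gene reads (median 21767339), and every pair within a group differed by more than sampling noise (chi-square per degree of freedom 9.54 to 98.3).

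The main tests were run in edgeR 4.0.16 under R 4.3.3 (filterByExpr, TMM, robust quasi-likelihood test, Benjamini-Hochberg adjustment over all genes tested), which needs limma 3.58.1, with DESeq2 1.42.0 as an alternative. Summaries and figures came from Python 3.11.15 (pandas 2.3.3, matplotlib 3.10.9). A UVB response was fitted on the 8 mice of its sex alone, while the interaction and the sex differences used all 16, with no covariate. The threshold of 0.1 is that of the study's methods. Standard errors follow from the F statistic and intervals are at 95%. Log2 levels carry a prior count of 2. Each sample was taken as 1 mouse, and p-values measure the spread between these samples. The pipeline was tested on simulated data. The rule for named genes was all members, up to 3 genes a list with the largest change among those called in either sex, receptors, ligands or partners of a member, and the 3 genes most like each member. The members, the 21 lists, the tests and most alternatives were chosen with earlier results of these data known. Alternatives chosen after seeing the files were leaving out no-UVB males 1 and 2, or 3 and 4, and TMM without the 100 most abundant genes. Cadm3 was also added then. The values of 1 gene of the leukocyte ligand list are not reported here.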

Additional observations from a re-analysis of the deposited data

Results flagged for a closer look

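A group's highest or lowest mouse was far from the other 3 (a gap above Dixon's 95% critical value) for 4 of 40 sets of 4 mice, and chance alone flags about 1 in 20. UVB female 2 was the outlying mouse in 3 of these, at 10.53 CPM of *Sele*, 114.0 CPM of *Plvap* and 84.33 CPM of *Vegfa*, above the other UVB females each time. The same mouse had the highest summed endothelial identity and red blood cell levels. *Pecam1* stood at 97.16 CPM in no-UVB male 3, below the other no-UVB males. The cause was not tested for any of them.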

How the results depend on the processing

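Of 1120 alternative values of the members, 1008 kept their direction and their side of the threshold, 18 kept the direction and lost the call, 22 gained a call and 72 changed sign. Of 1418 values of named list genes, 1319 kept both and 99 lost the call with the same direction, and 3 had no adjusted p. Of the called members, the fall of *Ackr1* in males was called in 19 of 19 alternatives and its excess in no-UVB males in 26 of 26, the rise of *Selp* in males in 18 of 19, *Kdr* after UVB in 21 of 24, *Icam1* without UVB in 21 of 26 and *Kdr* without UVB in 17 of 26.

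Counts of called members moved as follows. In males, 2 were higher, *Selp* and *Sele*, not 1, with DESeq2's Wald test, the replicate block and all 16 mice in a single fit, 0 without no-UVB males 1 and 2 and 3 without no-UVB males 3 and 4. In males 2 were lower, not 1, with upper quartile scaling and 3 without no-UVB males 3 and 4. With a fold past 1 on the log2 scale both counts were 0. In the interaction, leaving out no-UVB males 3 and 4 gave 1 higher and 1 lower. Between the sexes without UVB it gave 2 higher, and 1 was lower, not 2, with every gene of at least 1 count and without no-UVB males 1 and 2, and 0 at an adjusted p under 0.05. After UVB, 1 was higher with the replicate block. Leaving out single mice gave 1 to 2 higher and 1 to 2 lower in males, 0 to 1 higher in females, 0 to 1 lower in the interaction, 0 to 2 lower without UVB, and 0 to 1 higher and 0 to 2 lower after UVB.

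The values that changed sign follow, on the log2 scale. Without no-UVB males 1 and 2 the male responses were -0.050 for *Icam1*, 0.169 for *Vcam1*, 0.051 for *Cdh5* and 0.173 for *Vegfa*, the interaction was -0.141 for *Sele*, -0.089 for *Selp* and -0.045 for *Icam1*, and the difference without UVB was 0.317 for *Sele*, 0.017 for *Selp*, -0.221 for *Vcam1* and -0.091 for *Pecam1*. Without no-UVB males 3 and 4 the male response of *Pecam1* was -0.034, and the interaction was -0.208 for *Vegfa* and 0.016 for *Kdr*. Upper quartile scaling, which moved the median male response of all genes to -0.100 (3880 higher and 6130 lower, beside 4802 and 5051), gave -0.041 for *Pecam1* in males, -0.026 for *Ackr1* in females and -0.014 for *Vegfa* in the interaction. *Cdh5* in males was 0.007 with DESeq2's size factors, 0.013 with its Wald test and 0.017 with every gene of at least 1 count. The interaction of *Kdr* was 0.017, 0.019 and 0.023 with DESeq2's size factors, its Wald test and TMM without the 100 most abundant genes. *Pecam1* between the sexes without UVB was -0.007 without regard to strand, with the Wald test and with at least 10 counts in every mouse, -0.008 with DESeq2's size factors and with every gene of at least 1 count, -0.021 with upper quartile scaling, -0.005 with the replicate block and -0.015 without the 100 most abundant genes. The causes were not tested. Leaving out single mice gave ranges across 0 in males for *Cdh5* (-0.059 to 0.046), *Pecam1* (-0.034 to 0.076), *Plvap* (-0.042 to 0.18) and *Vegfa* (-0.17 to 0.015), in females for *Ackr1* (-0.14 to 0.12) and *Icam1* (-0.10 to 0.019), in the interaction for *Kdr* (-0.094 to 0.11), *Plvap* (-0.20 to 0.044) and *Vegfa* (-0.087 to 0.093), without UVB for *Pecam1* (-0.059 to 0.088) and *Sele* (-0.56 to 0.017), and after UVB for *Selp* (-0.23 to 0.25).

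Over all genes, counts moved by more than 1.5 times mainly in the interaction. In the interaction, the 478 genes with a more positive male response became 1072 with DESeq2's Wald test, 782 with TMM without the 100 most abundant genes and 229 with every gene of at least 1 count, and 478 and 740 became 63 and 115 without no-UVB males 1 and 2, beside 832 and 1036 without no-UVB males 3 and 4. Single mice left out gave 163 to 835 and 298 to 1020. Without UVB, 1255 higher and 797 lower genes in males became 594 and 243 without no-UVB males 1 and 2 and 762 to 1388 and 430 to 943 without single mice. After UVB 2222 higher and 2169 lower became 1434 and 1682 with every gene of at least 1 count and 1322 to 2341 and 1469 to 2350 without single mice. With a fold past 1, male counts of 675 and 547 became 1124 and 923 with that filter and, without no-UVB males 3 and 4, 1027 and 772, and with at least 10 counts in every mouse they became 475 and 359, and female counts of 275 and 183 became 180 and 123.

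Same-numbered mice of 2 groups deviated from their group means with r of -0.123 to 0.217. Where r was below 0, a mouse was closer to another number than to its own. Values of this size cannot tell whether same-numbered mice shared a litter, cage or day, which the sample names do not give. The replicate block therefore served only as an alternative. It gave 1 more member called higher in males and 1 more after UVB. The lowest count of any member, for *Sele*, was 58 reads, and the part of depth in the spread between mice was not tested.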
